A study of Mus musculus with 44 samples.

Results

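The comparison described here sets skeletal muscle of mice labelled KO for Slc16a13 against muscle of wild-type (WT) littermates, across all genes. Its members were chosen by their labels, as the 11 muscle columns labelled KO and the 11 labelled WT of the table of read counts, 22 of 44 libraries in the series; the other 22 are livers of the same animals. All mice were males of 20 weeks fed a high-fat diet for 15 weeks. The KO mice carried a constitutive CRISPR/Cas9 deletion on a C57BL/6N background that removed the proximal promoter and exons 1 to 3 of Slc16a13 in every tissue and left the last exon. The muscle taken for sequencing is not named in the sources used here. RNA was selected for poly(A) tails, and a library holds RNA from 1 mouse, named here by its animal number. Libraries were sequenced in pools of 11 whose members are not given, so a pool and a genotype cannot be told apart.

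Skeletal muscle is built of multinucleated fibres that differ in their myosin heavy chain. Fast type IIB fibres, with the Myh4 chain, burn mainly glycogen and release lactate, whereas slow type I fibres, with Myh7, are rich in mitochondria and oxidise fatty acids and lactate. Between the fibres lie fat cells, fibroblasts, vessels, nerves, tendon and macrophages, so RNA of a piece of muscle also depends on which tissue was cut out with it; in such bulk samples fewer cells of a type and less RNA per cell cannot be told apart. The deleted gene encodes SLC16A13 (MCT13), a lactate transporter of the monocarboxylate transporter family.

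Between 21703841 and 35218243 reads per muscle library were counted on genes, with medians of 25208479 for WT and 26548720 for labelled KO. Of 38202 genes in the table, 13266 had enough reads to be tested. The tissue label fits its defining genes. In CPM (reads on a gene per 1000000 counted reads, after correction for composition), the type IIB myosin Myh4 lay between 60660 and 91607 in WT libraries and between 50680 and 90294 in libraries labelled KO, and the fast-fibre calcium buffer Pvalb lay between 6579 and 11360 over both groups. Of 11 hepatocyte markers only Alb and Hp passed the filter on low counts.

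Several libraries stood apart in a way that their genotype does not share. The library labelled KO of mouse 602 held transcripts of spermatids, the maturing germ cells of the testis. On 12 spermatid genes, listed after the data were seen, 13401 reads (439 CPM) were counted in this library, with all 12 genes detected. Prm1 and Prm2, the protamines that pack sperm DNA, had 1442 and 3091 reads there, Tnp1, a transition protein of the same process, had 1580, and Akap4, a scaffold of the sperm tail, had 1394. The library labelled KO of mouse 561 held 731 reads on the 12 genes, among them 214 on Prm2, 74 on Tnp1 and 57 on Akap4. In the other 20 muscle libraries the sum was between 36 and 72 reads, of which between 30 and 61 lay on Hils1 alone, and no other of the 12 genes exceeded 7 reads. The liver of mouse 602 had 5 reads on the 12 genes. Only 1 of these genes passed the filter on low counts. The filter asks for a minimum level in about as many libraries as a group holds, from either group.

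Other libraries stood apart through muscle or fat. The WT library of mouse 531 held slow-fibre transcripts that were close to absent elsewhere, with 76.2 CPM of Myh7 against 2.18 CPM in the next highest library. The libraries labelled KO of mice 561 and 611 held the most fat cell transcripts, with sums of 1794 and 1611 CPM over 10 adipocyte markers against at most 816.7 CPM in WT. Counting genes whose level in a library was at least 3 times that in any other library, 70 of the tested genes were found, and 52 of them belonged to mouse 602, 6 to WT mouse 531, 6 to KO mouse 532, 4 to WT mouse 616, and 1 each to WT mouse 516 and KO mouse 588. All of these libraries were kept in the main comparison, and counts without mice 531, 561 and 611, and without mouse 602 as well, are given beside it.

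Read counts of Slc16a13 did not follow the genotype label in muscle. In liver, the 11 WT libraries held between 99 and 302 reads (median 149) and the KO libraries between 0 and 8 (median 3), so the groups did not overlap. In muscle, WT libraries held between 4 and 22 reads (median 12) and libraries labelled KO between 11 and 40 (median 18), so the groups overlapped and the labelled KO libraries tended to the higher side. In muscle the groups differed by 0.64 on the log2 scale (the log2 fold change, labelled KO minus WT; standard error 0.22). The quasi-likelihood test of edgeR, adjusted by Benjamini-Hochberg over all tested genes, gave an adjusted p of 0.495 for it, with a labelled KO library above a WT library in 101 of 121 pairs. Because the muscle count goes against the label, these are called libraries labelled KO throughout. The counts are per gene, include the exon that the deletion left, and cannot show whether the deleted exons were read.

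Only Slc16a11 was called across all genes in muscle, 1 of 13266 or 0.00754 percent of those tested at an adjusted p under 0.05. Slc16a11 (ENSMUSG00000040938) encodes MCT11, another monocarboxylate transporter, and is the direct neighbour of Slc16a13 on chromosome 11. WT muscle held 5, 5, 2, 5, 4, 10, 13, 3, 0, 7 and 6 reads in the 11 mice in order of animal number, and muscle labelled KO held 16, 32, 18, 29, 23, 25, 7, 16, 16, 23 and 53. The labelled KO mouse with 7 reads, 588, lay inside the WT range, and the other 10 lay above every WT library, although the range of counts in WT was close to the level of 3 reads that was taken as the floor of detection. In total 60 reads were counted in WT and 258 in labelled KO muscle. Its log2 fold change of 2.03 had a standard error of 0.31 (edgeR, adjusted p = 0.014), a labelled KO library being higher in 119 of 121 pairs. Slc16a11 passed the filter on low counts mainly through libraries labelled KO, the group where it was higher, so being tested was not independent of the difference. With no filter, the log2 fold change was 2.02 and the adjusted p from edgeR was 0.0906.

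The increase of Slc16a11 kept its direction in all alternatives in which it was tested and lost its call in 7 of them. Without mice 561 and 611, which had 32 and 53 reads, the log2 fold change was 1.84 (adjusted p = 0.0835 from edgeR), without mouse 531 as well it was 1.76 (adjusted p = 0.18), and without mouse 602 in addition it was 1.75 (adjusted p = 0.357). With limma-voom in place of edgeR the adjusted p was 0.0762, and with DESeq2 it was 6.6e-06. Leaving out any single mouse gave adjusted p-values from edgeR between 0.00259 and 0.0465.

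In liver, where Slc16a11 is far more abundant, WT libraries held between 203 and 315 reads and KO libraries between 238 and 613 (log2 fold change 0.49, standard error 0.13, adjusted p = 0.382 from edgeR). The groups overlapped in liver. By quantitative PCR of single genes, a different measure with no adjustment over all genes, the paper reports Slc16a11 as significantly higher in knockout liver on the high-fat diet. Bcl6b, a transcriptional repressor gene on the other side of Slc16a13, had between 73 and 288 reads in WT muscle (median 100) and between 67 and 239 in muscle labelled KO (median 109). Its log2 fold change was -0.18 in muscle (standard error 0.21, adjusted p = 0.815) and -0.62 in liver (standard error 0.19, adjusted p = 0.382), and neither passed the test.

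**Figure D1:**
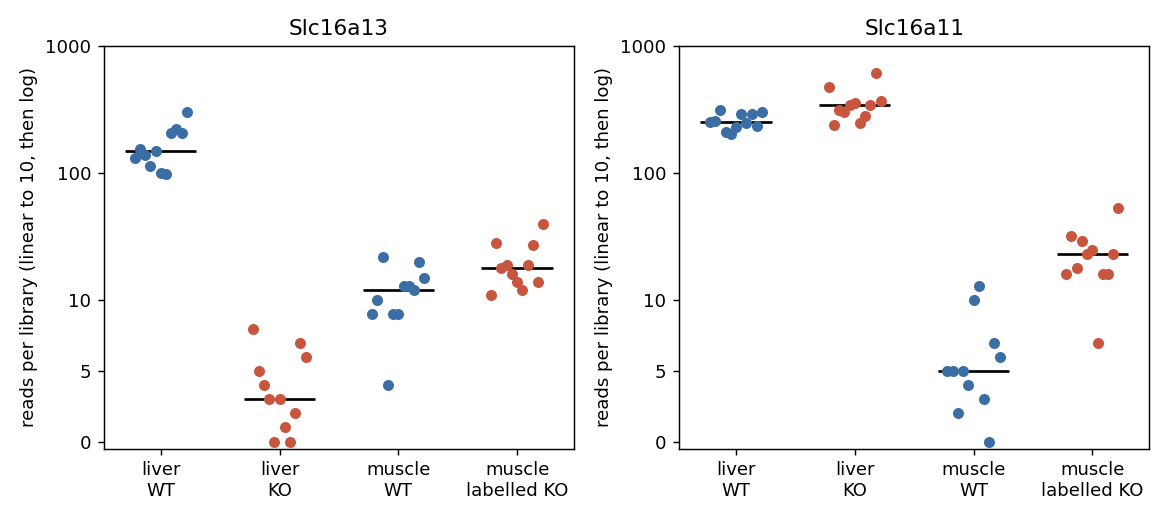
Reads counted on Slc16a13 (left) and Slc16a11 (right) per library, on an axis that is linear up to 10 reads and logarithmic above; each point is 1 library and each bar the median of 11. Slc16a13 separates the genotypes in liver and not in muscle, while Slc16a11 has a median of 5 reads in WT muscle and 23 in muscle labelled KO.

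The gene order around the deletion was taken from RefSeq and is Asgr1, Asgr2, Mgl2, Clec10a, Slc16a11, Slc16a13, Bcl6b, 0610010K14Rik and Rnasek. Slc16a11 and Slc16a13 lie on opposite strands with their 3′ ends facing each other, so the exon left by the deletion is the one nearest to Slc16a11. Libraries were made with a directional kit, so the reads carry the strand of the RNA. Whether the counting used strand is not stated in the sources used here. If it did not, reads on either side of the facing ends may not be told apart. KO livers held between 238 and 613 reads on Slc16a11 and between 0 and 8 on Slc16a13. In muscle labelled KO these ranges were 7 to 53 and 11 to 40. Whether reads of 1 gene were counted on the other was not tested. The promoter of the called gene is shown because the deleted promoter is not this one. It covers 250 bases before to 50 bases after the start of Slc16a11 on the plus strand at chr11:70213660-70213959 (GRCm38.p6, from RefSeq), with matches of the E-box motif CANNTG in capitals.
Slc16a11 promoter: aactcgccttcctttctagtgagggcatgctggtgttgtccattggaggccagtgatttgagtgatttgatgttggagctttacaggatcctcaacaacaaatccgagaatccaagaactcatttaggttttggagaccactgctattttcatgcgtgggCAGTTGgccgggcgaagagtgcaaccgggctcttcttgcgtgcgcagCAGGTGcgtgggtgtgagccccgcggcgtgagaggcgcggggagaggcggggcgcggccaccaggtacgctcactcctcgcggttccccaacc
Of these bases 58 percent are G or C. On either strand the window holds 2 matches of CANNTG, a motif present in 72.3 percent of 32851 promoters of the same length, and 1 match of CCAAT, present in 37.4 percent. It holds no match of TATAAA, present in 13.6 percent, or of GGGCGG, present in 35.7 percent. These matches describe the letters and were not related to the reads.

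Apart from Slc16a11, differences between the groups were small. At an unadjusted p under 0.05, 499 genes (3.76 percent of those tested) were higher and 647 (4.88 percent) lower in libraries labelled KO, and together these made 8.64 percent of tested genes. The median absolute log2 fold change over all genes was 0.06, 95 percent of genes lay within 0.33, 240 genes exceeded 0.5 and 23 exceeded 1. Of all genes 53.7 percent had a log2 fold change above 0. The smallest adjusted p after that of Slc16a11 was 0.422. For 0 of 13266 genes were the 11 log2 CPM values of one group all above those of the other.

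The data limit how large a change in muscle could be. The 95 percent confidence interval of the fold change from limma-voom had a median half-width of 0.15 on the log2 scale and excluded a 2-fold change in either direction for 12948 genes (97.6 percent), and it lay wholly within 0.5 of 0 for 11064 genes (83.4 percent). Libraries labelled KO were slightly more variable, with a median standard deviation of log2 CPM of 0.17 against 0.16 in WT. The split into higher and lower genes depended on scaling: with scaling by library size alone, 631 genes were higher and 497 lower at the same unadjusted threshold. Without mice 531, 561 and 611 there were 539 higher and 545 lower, and without mouse 602 in addition 433 and 476. Of the 1146 genes, 635 were also below the threshold without the first 3 of these mice.

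**Figure D2:**
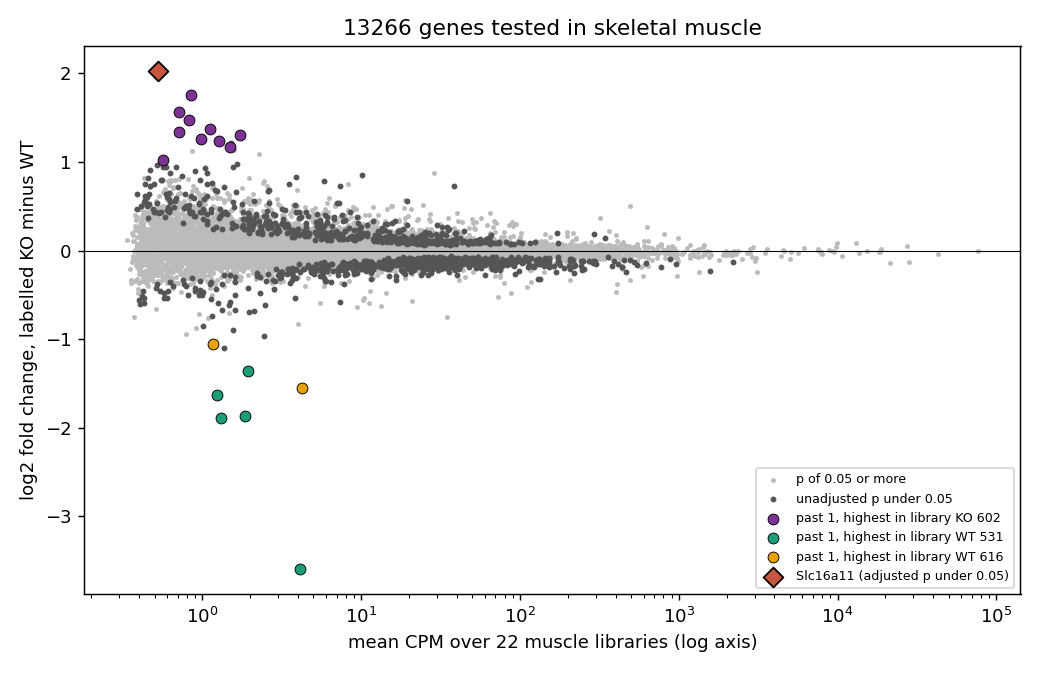
Log2 fold change (libraries labelled KO minus WT) of each tested gene against its mean CPM over 22 libraries on a log axis. Dark points have an unadjusted p under 0.05, the diamond is Slc16a11, and large coloured points are genes beyond 1 whose highest library was KO mouse 602 (10 genes), WT mouse 531 (5 genes) or WT mouse 616 (2 genes).

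Most genes with large fold changes had their highest level in a single mouse. Of the 23 genes beyond 1, 15 were higher and 8 lower in libraries labelled KO, and for 17 of them the highest library was KO mouse 602, WT mouse 531 or WT mouse 616. In mouse 602, Chl1 reached 10.2 CPM and Rsph1, a part of the axoneme of cilia and sperm tails, 8.11 CPM, which were 10.9 and 7.49 times the next highest library. Cabyr, a calcium-binding protein of the sperm tail, reached 6.39 CPM there, 9.18 times the next. With mouse 602 left out, the log2 fold change of Chl1 went from 1.76 to 0.08, that of Rsph1 from 1.48 to 0.23 and that of Lrrc8b, a subunit of volume-regulated anion channels, from 1.30 to -0.06. The genes of this library include other names known from sperm formation, such as Odf2 of the outer dense fibres of the tail (93 CPM, 4.33 times the next library), Ybx2, an RNA-binding protein of germ cells (18 CPM, 3.98 times), and Catsperg1, a subunit of the sperm calcium channel (3.41 CPM, 3.52 times).

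Different genes marked the remaining single mice. In WT mouse 616, sarcolipin (Sln), a regulator of the calcium pump, stood at 52.1 CPM, 4.51 times the next library, and the aldehyde dehydrogenase Aldh3a1 at 10.8 CPM, 3.94 times. In KO mouse 532, 6 genes stood at 3.01 to 4.85 times the next library, and all 6 are GTPases known to be induced by interferon gamma: Tgtp1, Tgtp2, Ifi47, Gbp4, Iigp1 and Gbp3. Tgtp1 and Tgtp2 are near-identical copies, and their counts may be divided between them. These genes were named after their values were seen. Without mouse 602, 13 of the 23 genes still exceeded 1, and the 10 genes highest in that mouse lay between -0.06 and 0.55. Leaving out mice 531, 561 and 611 instead kept mouse 602 in, and 14 of the 23 exceeded 1, of which 10 were those same genes of mouse 602. Slc16a11 stood at 2.04 and 1.76 in these 2 settings.

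Small shifts followed the base composition of the transcripts. Among the quartile of genes with the lowest GC content (30.96 to 44.99 percent), 264 genes were higher and 15 lower at an unadjusted p under 0.05, or 8.04 against 0.457 percent. Among the quartile with the highest (54.47 to 75 percent), 28 were higher and 470 lower, or 0.852 against 14.3 percent. Both middle quartiles lay between, with 131 higher and 47 lower, then 69 higher and 108 lower. The median log2 fold change fell from 0.05 in the lowest quartile to -0.05 in the highest, so the shift per gene was small and its direction common to many genes. Genes higher at the unadjusted threshold had a median GC content of 44.54 percent and a median length of 3000 bases, genes lower had 57.28 percent and 1758 bases, and all tested genes had 49.83 percent and 2466 bases.

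The same pattern was measured per library. A GC slope, the change in log2 CPM of a library relative to the mean of all 22 for each 10 percentage points of GC content, lay between -0.0514 and 0.0978 in WT libraries (median 0.0375) and between -0.132 and 0.0488 in libraries labelled KO (median -0.0391). Of the 11 WT slopes 3 were below 0, against 7 of the 11 labelled KO, and the ranges overlapped. The means were 0.0344 ± 0.0551 and -0.0344 ± 0.0582 (SD, n = 11 each), a difference of -0.0687 (two-sided permutation test with 100000 resamples, p = 0.0106, Benjamini-Hochberg adjusted p = 0.0211 over 2 slopes). The slope on gene length differed by 0.02 (p = 0.06 from the same test). With the GC slope as a covariate, which is itself measured on these libraries, the genes at an unadjusted p under 0.05 fell from 1146 to 484, of which 330 were higher and 154 lower, and 254 of the 484 were among the 1146. In this fit the lowest and highest GC quartiles had 77 and 73 higher genes and 36 and 41 lower genes. A covariate made from the GC trend of these genes evens out the quartiles largely by its making, so these counts are no separate result. Slc16a11 still passed, with a log2 fold change of 2.25 (adjusted p = 0.0194 from edgeR). Whether the slope arose in the RNA, in library preparation or in a pool was not tested.

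**Figure D3:**
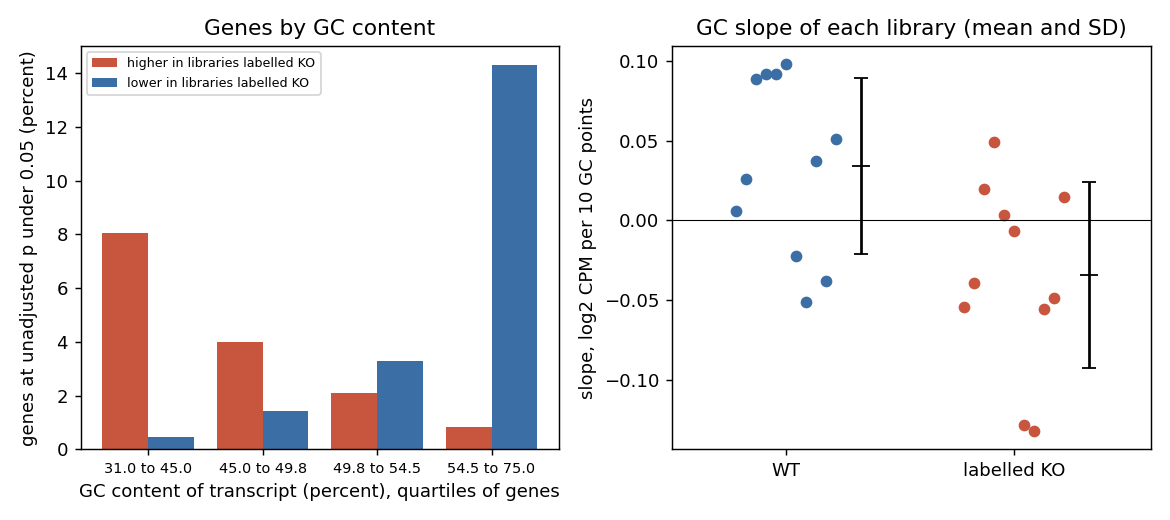
Left, percent of genes at an unadjusted p under 0.05 that were higher or lower in libraries labelled KO, by quartile of transcript GC content (bars start at 0). Right, the GC slope of each of 22 libraries in log2 CPM per 10 percentage points of GC, with the mean and SD of each group; 3 WT slopes and 7 labelled KO slopes lie below 0.

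The genes with the smallest p in each direction were 12 higher and 12 lower, among genes with a mean of at least 1 CPM. Differences in these genes were small. They were picked by p in these same libraries, so their pair counts follow largely from that choice and are no separate test. Their adjusted p-values lay between 0.422 and 0.49, so none passed. Among the 12 higher, Hypk, a partner of the enzyme that acetylates new protein chains, had between 11.5 and 13.7 CPM in WT (median 12.4) and between 12.7 and 17.2 in labelled KO (median 14.2), with a log2 fold change of 0.22 and 118 of 121 pairs higher. Sult1a1, a sulfotransferase, had a median of 16.5 CPM in WT and 19.7 in labelled KO (log2 fold change 0.24, standard error 0.06). Papss2, which makes the sulfate donor, had medians of 6.81 and 8.46 CPM (log2 fold change 0.33, standard error 0.10). The other 9 were Myo9a, an unconventional myosin, the chromatin regulators Arid4b and Smchd1, the cyclic AMP responsive factor Creb1, the sorting nexin Snx4, the membrane-bending protein Fnbp1l, Mphosph9, Nufip2 and Zfp945. Over the 12, log2 fold changes ran from 0.13 to 0.33 and 99 to 118 of 121 pairs were higher.

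Among the 12 lower, Vps9d1 had between 18.8 and 20.6 CPM in WT (median 19.8) and between 15.3 and 19.6 in labelled KO (median 17.7), with a log2 fold change of -0.17 and a labelled KO library higher in 6 of 121 pairs. Thoc6, part of the complex that couples transcription to messenger RNA export, had medians of 6.36 and 5.55 CPM, and a labelled KO library was higher in 4 of 121 pairs. Eif6, which keeps ribosomal subunits apart, had medians of 28.2 and 24.2 CPM. The nuclear receptor Nr2f6 had medians of 7.998 and 6.31 CPM, a log2 fold change of -0.28 (standard error 0.07). The remaining 8 were the mitochondrial selenoprotein Selenoo, the small GTPase Arl2, the RNA polymerase II subunit Polr2i, the mTORC2 subunit Mapkap1, the formin Fhod1, Fbxl18, Tjap1 and Trabd. Over the 12, log2 fold changes ran from -0.11 to -0.28. The higher genes had a median GC content of 42.29 percent and the lower genes 56.33 percent. With the GC slope as a covariate, 11 of 12 and 11 of 12 kept their direction and an unadjusted p under 0.05. The lowest edgeR adjusted p among them in that fit was 0.657, for Sult1a1. Because the genes were picked by p in the same libraries, these counts are no separate test. Of all 1146 genes at the unadjusted threshold, 254 stayed below it in that fit.

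Fibre type was read from the 4 adult myosin heavy chain genes, as a share of their summed RPKM (the authors' read values scaled to gene length and library size). Myh4 made up 95 ± 3.23 percent in WT and 95.7 ± 3.55 percent in labelled KO (SD, n = 11 each), so nearly all of this myosin RNA was of the type IIB chain in both groups. The shares ran from 87.4 to 98.3 percent in WT and from 85.3 to 98.1 percent in labelled KO, with WT mouse 624 and KO mouse 611 lowest. Myh1, the type IIX chain, made up 4.38 ± 2.69 and 3.86 ± 3 percent, and Myh2, the type IIA chain, 0.623 ± 0.628 and 0.471 ± 0.557 percent. None of the 4 shares differed beyond the spread between mice (two-sided permutation tests with 100000 resamples, adjusted p = 0.658 for each over 4 genes). The difference of the Myh4 share was 0.681 percentage points, and its sign turned (-0.076) when WT mouse 624 was left out. Of 9 markers of type IIB and fast fibres, 1 was higher and 8 lower, with a median log2 fold change of -0.02 against 0.01 over all tested genes, and 0 had an unadjusted p under 0.05. Leaving out mice 531, 561 and 611 made 8 of the 9 higher, at a median of 0.02.

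Slow type I fibre genes had lower means in libraries labelled KO, and a single WT mouse stood far above the rest. The means of all 9 tested members were lower (median log2 fold change -1.36), and 5 had an unadjusted p under 0.05. For all tested genes, the share lower at that threshold was 4.88 percent. Myh7 had between 0 and 76.2 CPM in WT (median 0.689) and between 0 and 1.57 in labelled KO (median 0.633), and its log2 fold change was -3.60 (standard error 1.03, edgeR adjusted p = 0.49). In WT mouse 531, the regulatory light chain Myl2 had 24.6 CPM, the troponin subunits Tnnt1, Tnni1 and Tnnc1 had 20.4, 14.8 and 16.4, and in no other WT library did these genes exceed 2.18 CPM. The medians of WT and labelled KO were 1.15 and 1.20 CPM for Tnnt1 and 0.481 and 0.455 for Tnni1, which were close, and 0.858 and 0.372 for Myl2 and 0.555 and 0.387 for Tnnc1, which were lower in labelled KO. Without mouse 531 the log2 fold change of Tnnt1 was 0.04 and that of Tnni1 was 0.00, and without mice 531, 561 and 611 the median of the list was -0.27 with 0 genes at an unadjusted p under 0.05.

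Other markers of the fibre itself showed no gene at the unadjusted threshold over all 22 libraries. The 2 genes of type IIA and IIX fibres, Myh1 and Myh2, had a median log2 fold change of -0.36 (-0.55 without mice 531, 561 and 611), and the 4 tested genes of immature fibres a median of -0.20, led by embryonic Myh3 at -0.71 (edgeR adjusted p = 0.654), which stood at -1.16 without mice 531, 561 and 611 (unadjusted p = 0.0077, edgeR adjusted p = 0.59). The 6 satellite cell markers, from the muscle stem cells with Pax7, had a median of -0.01 with 3 higher, and the 8 tested genes of the neuromuscular junction and denervation, such as the acetylcholine receptor subunit Chrna1 (log2 fold change -0.06), had a median of -0.08 with 0 higher. WT mouse 616 stood highest in both the immature fibre and the junction list, with a sum of 46.3 CPM over the immature fibre genes against at most 30.6 in any other library, and 142.2 CPM over the junction genes against at most 107. Without this mouse 4 of the 8 junction genes were higher, at a median of -0.02, and the median of the immature fibre genes was -0.08.

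Fat cell markers had higher means in libraries labelled KO, and mice 561 and 611 held the highest levels. Their sum lay between 268.2 and 816.7 CPM in WT and between 347.6 and 1794 in labelled KO, and none of the 10 was at 0 in a whole group. The means of all 10 adipocyte markers were higher (median log2 fold change 0.39), and 1 of them, Cfd (the serum protease adipsin), had an unadjusted p under 0.05. Shares over all tested genes were 3.76 percent higher at this threshold and 53.7 percent with a log2 fold change above 0. Cfd had between 13.5 and 58.0 CPM in WT (median 29.3) and between 16.1 and 163.5 in labelled KO (median 36.5) (log2 fold change 0.73, standard error 0.32, edgeR adjusted p = 0.527). Adipoq, the hormone adiponectin, had between 21.98 and 83.7 CPM in WT (median 52.2) and between 30.3 and 223.7 in labelled KO (median 53.1). Its medians were thus nearly equal, and the 2 highest values, 223.7 and 163.7 CPM, were those of mice 561 and 611. Perilipin 1 (Plin1), which coats the lipid droplet, was at 64.6 and 49.7 CPM in the same mice against at most 25.1 in WT. With mice 531, 561 and 611 left out, 1 of the 10 markers was higher and the median was -0.24. Of the brown fat genes, Elovl3 was lower, at medians of 0.562 and 0.393 CPM (log2 fold change -0.37, adjusted p = 0.526), Cidea had a log2 fold change of -0.18, and Ucp1 and Otop1 did not pass the filter on low counts. With the mean log2 CPM of the adipocyte markers as a covariate, 1275 genes had an unadjusted p under 0.05 against 1146 without it. Slc16a11 was again the 1 called gene (log2 fold change 1.95, edgeR adjusted p = 0.0201).

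Immune and connective tissue markers lay above 0 on average by smaller amounts. All 10 tested macrophage markers had a higher mean (median log2 fold change 0.26), from the pan-macrophage gene Cd68 at 0.00 to Adgre1 (F4/80) at 0.47, and 0 had an unadjusted p under 0.05. Summed over the list, macrophage markers lay between 60.5 and 169 CPM in WT (median 117.8) and between 75.9 and 239.7 in labelled KO (median 137.5), and KO mice 611, 561 and 598 were highest. Of 10 fibroblast markers 9 were higher (median 0.19), and 2 had an unadjusted p under 0.05: the growth factor receptor Pdgfra, at medians of 23.8 and 25.2 CPM, and the proteoglycan decorin (Dcn), at 279.6 and 313.5 CPM. Among all tested genes 3.76 percent were higher at that threshold and 53.7 percent had a log2 fold change above 0. Without mice 531, 561 and 611 the medians were 0.13 for macrophages and 0.08 for fibroblasts. Tendon markers had a median of 0.03, which was 0.24 without these 3 mice, and KO mouse 561 was lowest in their sum at 27.7 CPM against at least 57.2 in WT.

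Endothelial markers had a median of 0.07 with 7 of 10 higher, among them the vascular phosphatase Ptprb at medians of 63.0 and 66.1 CPM (log2 fold change 0.18, adjusted p = 0.509). Smooth muscle and pericyte markers (7 tested) had a median of 0.07, mast cell markers (5) 0.14, Schwann cell and nerve markers (8) 0.06, erythroid genes (5) 0.06 and keratinocyte genes (2) 0.06, and 0 of these 27 genes had an unadjusted p under 0.05. The highest erythroid sum, 190.2 CPM, was that of KO mouse 611, against at most 93.9 CPM in WT. With mice 531, 561 and 611 left out, the medians were -0.20 for erythroid, -0.01 for endothelial, 0.02 for mast cell, 0.02 for smooth muscle and pericyte and 0.00 for Schwann cell and nerve genes. In this setting the near-identical alpha globin genes Hba-a1 (log2 fold change -0.31) and Hba-a2 (-0.33) were lower at an unadjusted p under 0.05, with an edgeR adjusted p of 0.602 for both, as was the endothelial tight junction gene Cldn5 (-0.35, adjusted p = 0.591). No marker of neutrophils, T and NK cells or B and plasma cells passed the filter, and the summed level of each of these lists was below 3 CPM in every library. Of the liver markers, albumin (Alb) had between 0.226 and 4.28 CPM in WT (median 0.435) and between 0.439 and 5.51 in labelled KO (median 1.55), 1.21 on the log2 scale (standard error 0.51, adjusted p = 0.522). Haptoglobin (Hp), which fat cells also make, had a log2 fold change of -0.07.

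**Figure D4:**
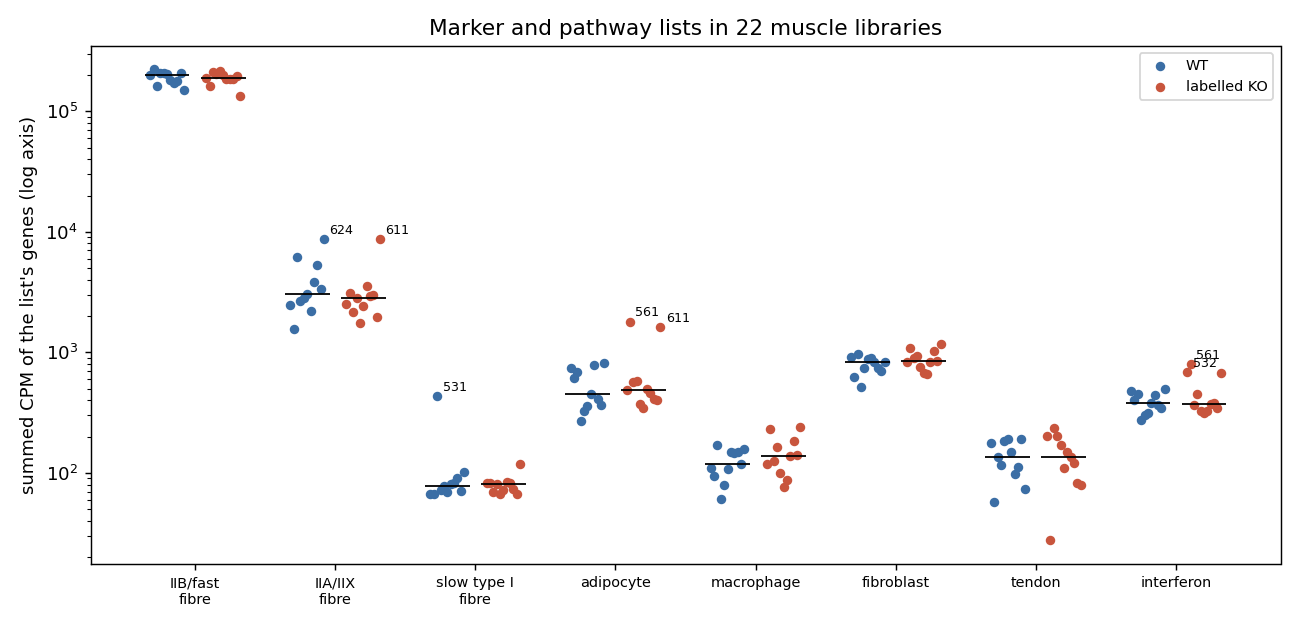
Summed CPM of the genes of 8 lists in each of 22 muscle libraries on a log axis, with the median of each group as a bar and single mice numbered. WT mouse 531 stands alone in slow type I fibre genes (431 CPM), and KO mice 561 and 611 stand highest in adipocyte genes (1794 and 1611 CPM).

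Genes that handle lactate and its relatives showed no common direction. Of 17 tested members, 7 were higher and 10 lower, with a median log2 fold change of -0.02, and Slc16a11 alone had an unadjusted p under 0.05. Slc16a3 (MCT4), the lactate exporter of fast fibres, had between 235.1 and 375.6 CPM in WT (median 326.7) and between 210.3 and 360.4 in labelled KO (median 309.6; log2 fold change -0.05, standard error 0.09). Slc16a1 (MCT1), the importer of oxidative fibres, had medians of 23.2 and 19.2 CPM (log2 fold change 0.01, standard error 0.15). The lactate dehydrogenase subunit Ldha had medians of 2860 and 2808 CPM (log2 fold change 0.02, standard error 0.06), and Ldhb, which prevails in oxidative tissue, had a log2 fold change of -0.33 (standard error 0.32). Slc16a7 (MCT2) was not tested; its highest count, 216 reads, was in KO mouse 602, the library with spermatid transcripts, where the testis forms of lactate dehydrogenase and glyceraldehyde phosphate dehydrogenase, Ldhc and Gapdhs, had 1074 and 960 reads.

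Fuel oxidation genes lay slightly below 0 on average. The means of all 30 nuclear-encoded respiratory chain genes were lower (median log2 fold change -0.06), and 5 had an unadjusted p under 0.05. Across all tested genes, 4.88 percent were lower at this threshold and 53.7 percent had a log2 fold change above 0. Cox6a2, the muscle form of a cytochrome oxidase subunit, had medians of 475.1 and 421.5 CPM (log2 fold change -0.24, standard error 0.09), and Ndufs7, a complex I subunit, 175.0 and 150.0 CPM (log2 fold change -0.24, standard error 0.08). The remaining 3 were Ndufb7 of complex I, Uqcrq of complex III and Atp5d of the ATP synthase, with log2 fold changes of -0.15, -0.32 and -0.17. Omission of mice 531, 561 and 611 left 0 of the 30 higher, at a median of -0.06, with 6 lower at the unadjusted threshold. With KO mouse 611 alone left out, 0 were higher, the median was -0.08 and 10 were lower at that threshold. Of the 30 genes, 10 lie in the quartile of highest GC content and 3 in the lowest. With the GC slope as a covariate, 1 of the 30 was higher, 0 had an unadjusted p under 0.05, the median was -0.02, and Uqcrq stood at -0.05 and Ndufs7 at -0.03. Of 26 genes of fatty acid uptake and oxidation, 5 were higher and 0 passed the unadjusted threshold (median -0.05). The fatty acid transporter Cd36 stood at 0.18 and the dehydrogenase Acads at -0.18. Omission of mice 531, 561 and 611 left 3 of the 26 higher, at a median of -0.09, with 2 lower at the unadjusted threshold. Of 18 genes of glycolysis and glycogen, 6 were higher (median -0.02), against 9 without mice 531, 561 and 611 (median -0.001). Glycogen synthase Gys1, at medians of 472.2 and 434.8 CPM, had an unadjusted p under 0.05 (log2 fold change -0.11, standard error 0.04).

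Contractile genes differed little between the groups. Of 22 genes of the sarcomere and calcium release, 4 were higher, the median log2 fold change was -0.03, and 1 had an unadjusted p under 0.05: Tcap, the titin cap, with medians of 1512 and 1367 CPM (log2 fold change -0.23, standard error 0.11) and -0.01 with the GC slope as a covariate. At that threshold 4.88 percent of all tested genes were lower. The calcium release channel Ryr1 had a log2 fold change of -0.09 (standard error 0.08). When mice 531, 561 and 611 were left out, 11 of the 22 were higher.

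Immediate early genes, which are switched on within minutes of a stimulus, had the lowest median of the 12 pathway lists. Of 16 tested, 15 were lower, with a median log2 fold change of -0.27, and 4 had an unadjusted p under 0.05. Over all tested genes, 4.88 percent were lower at that threshold and 53.7 percent had a log2 fold change above 0. Junb had between 3.63 and 17.96 CPM in WT (median 7.35) and between 2.97 and 10.5 in labelled KO (median 5.03) (log2 fold change -0.58, standard error 0.25, edgeR adjusted p = 0.527). Myc had medians of 6.76 and 5.64 CPM (log2 fold change -0.34, standard error 0.12), Jund 7.85 and 7.30 (-0.26) and Ier2 3.19 and 2.75 (-0.28). The groups overlapped for each of these transcription factor and response genes. Fos, which pairs with Jun proteins, varied widely, between 3.70 and 46.0 CPM in WT and between 3.48 and 33.95 in labelled KO. Of the 16, 6 lie in the quartile of highest GC content and 0 in the lowest, and with the GC slope as a covariate 15 were still lower, the median was -0.19 and 1, Myc, had an unadjusted p under 0.05 (log2 fold change -0.37). Without mice 531, 561 and 611 the median was -0.32, with 6 at the unadjusted threshold.

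Heat shock genes had 5 of 15 higher (median -0.05), and 2 were lower at an unadjusted p under 0.05: the stress-induced chaperones Hspa1a, with a log2 fold change of -0.68, and Hspa1b, with -0.90 (standard errors 0.27 and 0.30, adjusted p = 0.514 and 0.495). These neighbouring genes are near-identical, so reads may be divided between them, and in WT the medians, 1.58 and 1.24 CPM, lay far below the highest values of 5.70 and 4.57. With the GC slope as a covariate their log2 fold changes were -0.08 and -0.15. Genes of the unfolded protein and integrated stress response had 5 of 16 higher (median -0.04) and 2 higher at an unadjusted p under 0.05, the chaperone calnexin (Canx), at medians of 85.4 and 89.3 CPM, and asparagine synthetase (Asns), at 1.29 and 1.34 CPM with a highest value of 4.57 in labelled KO against 1.999 in WT. Of all tested genes, 3.76 percent were higher and 4.88 percent lower at that threshold.

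Interferon response and antigen presentation genes all had a higher mean in libraries labelled KO. The median log2 fold change of the 21 was 0.22, and 1, the guanylate-binding protein Gbp2, had an unadjusted p under 0.05. Over all tested genes, 3.76 percent were higher at this threshold and 53.7 percent had a log2 fold change above 0. Gbp2 had between 4.25 and 7.86 CPM in WT (median 5.72) and between 4.65 and 26.4 in labelled KO (median 6.31; log2 fold change 0.53, standard error 0.25, adjusted p = 0.564). Summed over the list, medians were 378.2 CPM in WT and 374.3 in labelled KO, so the medians were close, and KO mice 561, 532 and 611 alone exceeded every WT library, at 801.9, 687.1 and 672.2 CPM against at most 493.6. Beta-2-microglobulin (B2m), the light chain of MHC class I, had medians of 78.7 and 79.4 CPM (log2 fold change 0.30). Without mice 531, 561 and 611 the median of the list was 0.13, with 19 of 21 higher and 0 at the unadjusted threshold. This setting kept KO mouse 532, at 687.1 CPM, and the list was not counted without that mouse.

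Extracellular matrix genes were higher for 21 of 22 members (median 0.13), against 53.7 percent of all tested genes, and 0 had an unadjusted p under 0.05. The matricellular protein periostin (Postn) had the largest log2 fold change of the list at 0.46 (standard error 0.32), with medians of 7.40 and 7.50 CPM. After omission of mice 531, 561 and 611, 11 of the 22 were higher and the median was 0.01. Clock genes had 6 of 18 higher (median -0.05), with Clock itself at medians of 39.8 and 45.0 CPM (log2 fold change 0.15, standard error 0.05, adjusted p = 0.507) and 0.05 with the GC slope as a covariate. Genes of atrophy, glucocorticoid and fasting response had 11 of 20 higher (median 0.02) and 0 at the unadjusted threshold, the ubiquitin ligases Fbxo32 and Trim63, which mark wasting muscle, standing at -0.05 and 0.00.

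**Figure D5:**
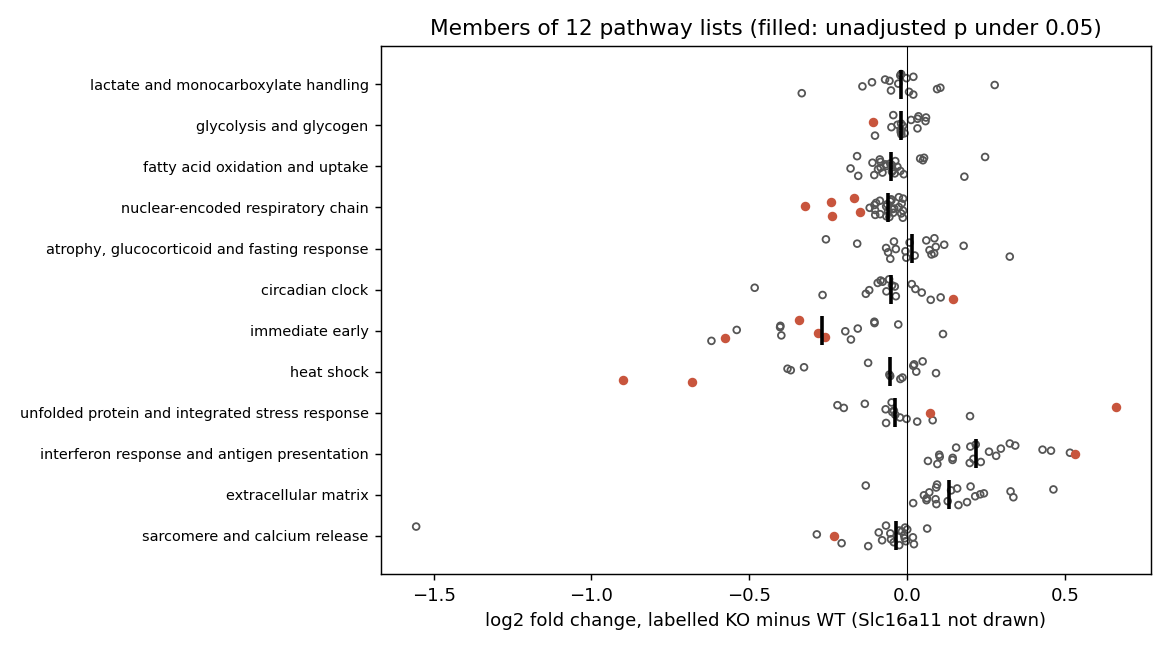
Log2 fold change (libraries labelled KO minus WT) of each tested member of 12 pathway lists; filled points have an unadjusted p under 0.05, open points do not, and a vertical bar marks the median of each list. Slc16a11 is not drawn but counts in the median of its list; immediate early genes have the lowest median (-0.27) and interferon genes the highest (0.22).

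Along the main directions of variation among the 22 libraries, the groups overlapped. The first principal component of log2 CPM held 29.3 percent of the variance, with genes of fat and macrophages such as Adrb3, Trem2 and Mmp12 at its high end and tendon genes such as Chad, Kera and Fmod at its low end. KO mice 611 and 561 had the highest scores, 46.6 and 43.9, followed by WT mice 624 and 531 at 20.9 and 19.2, and the lowest was WT mouse 536 at -31.6. The difference between groups was 5.97 (two-sided permutation test with 100000 resamples, adjusted p = 0.813 over 5 components). The second component held 9.52 percent, had slow-fibre genes such as Myl2 and Myh7 at its high end and the genes of KO mouse 602 such as Chl1, Xrra1 and Tppp2 at its low end, where this library lay at -27.1, and differed by -7.94 (adjusted p = 0.468). Components 3 to 5 had adjusted p-values between 0.813 and 0.938.

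Whether the genotype effect differed between muscle and liver was tested over all 44 libraries and 14739 genes. Slc16a13 passed, 1 gene or 0.00678 percent at an adjusted p under 0.05: its log2 fold change was 6.08 higher in muscle than in liver (standard error 0.38, adjusted p = 5.9e-16 from edgeR). Both tissues came from the same animals, and pairing them through a replicate block for each mouse gave 6.11 (adjusted p = 2.7e-10) and 1 called gene. Slc16a11 had a difference of 1.53 (standard error 0.32, adjusted p = 0.081 without the replicate block and 0.321 with it), so its larger fold change in muscle was not called as a difference between tissues. With scaling by library size alone, 3 genes were called, Slc16a13, Slc16a11 (adjusted p = 0.0197) and the lymphoid transcription factor gene Ikzf2 (adjusted p = 0.0143).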

How the data were processed

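Muscle libraries of 11 WT mice and 11 mice labelled KO were compared by the group and animal number in their labels; livers entered only the test of genotype by tissue. The members, gene lists and tests were chosen with earlier results of these data known. The authors deposited raw read counts per gene, without normalization, and RPKM values scaled by them to gene length and library size. Aligner, counting program, strand setting and genome build are not given in the sources used here, and the 2 tables were used as deposited. The count tests used edgeR 4.0.16 under R 4.3.3 (filterByExpr, scaling by TMM, quasi-likelihood F-test), with p-values adjusted by Benjamini-Hochberg at 0.05; CPM values are TMM-scaled. RPKM was used only for myosin shares. Intervals came from limma 3.58.1 (voom). GC content was that of the longest GENCODE M21 transcript (13140 of 13266 genes), and gene length was the median length implied by both tables. Symbols matched for 36340 of 38202 identifiers.

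Alternatives were DESeq2 1.42.0, limma-voom, library size scaling, no filter, and at least 10 counts in every library. Others were 1 surrogate variable (sva 3.50.0), the mean log2 CPM of a marker list or the length slope as covariate, and each mouse left out. Omission of mice 531, 561, 602 and 611 in sets, list medians without mouse 611 or 616 and the GC slope as covariate were added after seeing the data. So were the spermatid genes and the ratio of 3 for genes high in 1 library. Named are called genes, the 12 genes with the smallest p in each direction with a mean of at least 1 CPM and no predicted-gene name, Slc16a13 with its neighbours Slc16a11 and Bcl6b, list members with an unadjusted p under 0.05, and genes whose groups do not overlap. Further genes were named after their values were seen. A marker and a pathway collection of 21 and 12 lists was written from textbook knowledge. Of 110 library pairs within groups 0 held identical counts, and the lowest chi-square per gene was 4.26. Same-numbered liver and muscle libraries come from 1 mouse; their deviations from the group means correlated at 0.0704 on average across genes, against -0.00674 for different mice of a genotype. The p-values measure the spread between these mice. The fit was also run on simulated counts. These held no outlying library and no GC trend, so that run does not cover such features of the data.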

Additional observations from a re-analysis of the deposited data

Results flagged for a closer look

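The genotype effect on Slc16a13 differed between the tissues by a test of the difference itself: the log2 fold change was 6.08 higher in muscle than in liver, with muscle counts that go against the label. Its cause was not tested. Of the 12 spermatid genes, 11 lie outside the main comparison, because they did not pass the filter on low counts. The library labelled KO of mouse 602 held 13401 reads on the 12 genes, against between 36 and 72 in the 11 WT muscle libraries. The library labelled KO of mouse 561 held 731. Among tested genes, 52 had a level in mouse 602 at least 3 times that in any other library, so RNA particular to this library did enter the main comparison.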

How the results depend on the processing

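The call of Slc16a11 in muscle, at a log2 fold change of 2.03, was lost with limma-voom (2.20), with no filter on low counts (2.02), with hepatocyte markers (2.08) or the gene length slope (2.04) as covariate, without mice 561 and 611 (1.84), without mice 531, 561 and 611 (1.76) and without mouse 602 as well (1.75); 0 genes were called in these settings or with at least 10 counts in every library, which removes Slc16a11. At an unadjusted p under 0.05 limma-voom had 1065 genes and the others between 648 and 3016. DESeq2 called 2 genes, Slc16a11 and the predicted gene Gm6322. Leaving out each mouse in turn left 1 called gene, 1.90 to 2.22 for Slc16a11, 0.56 to 0.76 for Slc16a13 and 869 to 1429 genes at an unadjusted p under 0.05. That count, 1146, was 3016 with no filter, 648 with the gene length slope and 484 with the GC slope as covariate. For genotype by tissue, library size scaling called 3 genes and at least 10 counts in every library 0, since it removes Slc16a13; the replicate block gave 1. Over the left-out mice the myosin shares differed by -1.4 to 0.139 points (Myh1), -0.313 to -0.0105 (Myh2), -0.076 to 1.72 (Myh4) and -0.0107 to -0.000345 (Myh7), Myh1 and Myh4 reversing without WT mouse 624. Component 4 reversed from -0.288 to 0.45 with the 500 most variable genes and to 0.0421 with library size scaling. Tnnt1 and Tnni1 reversed with DESeq2 (0.043 and 0.013), with slow-fibre markers as covariate (0.11 and 0.090) and without WT mouse 531 (0.044 and 0.0017), with ranges over the left-out mice of -1.66 to 0.044 and -2.04 to 0.0017. No other gene named by the rule changed direction. WT counts of Slc16a11 near the floor limit the precision of its fold change.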
